A study of Mus musculus with 18 samples.

Results

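The RNA made from inserted sequences was described in mouse embryonic stem cells that received a non-targeting siRNA (siNT), the state in which the Restrictor complex had not been depleted. The members were inserts with a mean of 20 or more genomic DNA (gDNA) reads over the 3 siNT gDNA libraries, with no minimum on RNA, and 15397 of the 16461 listed inserts met this. The choice used gDNA reads and no RNA reads. It is not independent of the level, which has gDNA as its denominator, nor of the silent share, which was 9.04% with no gDNA minimum, 6.86% at 20 reads and 3.85% at 100. The lowest mean inside the minimum was 20 reads and the highest outside was 19.7. No RNA read was found in any siNT culture for 21.96% of the 214 inserts just inside, at 20 to under 30 gDNA reads, and for 28.3% of the 247 just outside, at 10 to under 20.

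INSERT-seq places a pool of sequences at a single place in the genome and reads how much RNA each gives there. Here that place lies in the upstream antisense RNA of Oct4, the transcript that runs away from the Oct4 gene (Pou5f1). All groups had the same cells, female and of CAST/129 hybrid background, and the same edited 129 allele, on which the labels give TagBFP2 at Oct4C, the insert pool at Oct4ua157 and mKate2, a red fluorescent protein from which reverse transcription was primed, at Oct4ua172. The siNT group was treated with 30 nM siNT in 3 cultures, and each gave 1 RNA and 1 gDNA library, 6 of the 18 libraries of the series. The other groups received siWDR82 or siZC3H4, at 30 nM except that the labels give 31 and 32 nM for siWDR82 replicates 2 and 3. Each insert was carried by an unknown number of cells in the pool, so fewer cells that make its RNA and less RNA per cell cannot be told apart.

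Restrictor is a complex around WDR82 and ZC3H4 that ends transcription by RNA polymerase II early, mostly on noncoding units such as upstream antisense RNAs. Such RNAs are usually short-lived, and RNA polymerase II is often stopped early on them. Recognition of a 5′ splice site by U1 snRNP is known to protect a transcript from early ending, and splicing is associated with stable, exported RNA. The level of an RNA can depend on initiation, early ending, processing and decay, which these libraries do not separate.

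All inserts share the same place in the genome. The 250 bases before the annotated start of Pou5f1 are shown as a stretch of this locus. They are from RefSeq, build GRCm38.p6, chr17:35505782-35506031, plus strand, 5′ to 3′ in the direction of Pou5f1. The start of the upstream antisense RNA and the insertion point were not placed on this stretch. Whether it acts as the promoter of the inserts was not tested. The upstream antisense RNA runs the other way. This is the C57BL/6J reference, so bases of the 129 allele may differ. Capitals mark the only match to GGGCGG (searched on both strands, CCGCCC on the other), the core of the GC box bound by factors of the SP family. The motif was found in 32.7% of 32851 RefSeq windows of the same length. The inserted sequences were not used here, so members are named by their number in the tables.
Pou5f1 upstream window: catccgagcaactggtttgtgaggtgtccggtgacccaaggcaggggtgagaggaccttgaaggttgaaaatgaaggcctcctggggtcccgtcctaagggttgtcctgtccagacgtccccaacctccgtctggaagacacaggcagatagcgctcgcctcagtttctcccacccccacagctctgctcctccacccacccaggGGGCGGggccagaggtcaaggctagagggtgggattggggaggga

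The siNT libraries were deep and of similar size. RNA libraries held 40977500 to 45455809 insert reads and gDNA libraries 11166865 to 11510602, and the members took at least 99.6% of either. The median member had 1029, 951 and 990 RNA reads and 557, 524 and 526 gDNA reads in cultures 1, 2 and 3. An insert with the average RNA output would thus have 3.67 to 3.98 RNA reads for each gDNA read.

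Steady-state RNA differed widely between inserts, and most lay below the average of the pool. The level of an insert was taken as log2 of RNA over gDNA, each in CPM (insert reads scaled to a common library size) with 0.5 added, so that 0 is the library average. The median level was -0.92, -0.82 and -0.83 in the 3 cultures, and 31.5 ± 0.48% of inserts (mean ± SD, n = 3) stood above the average. The 5th and 95th percentiles were -4.84 ± 0.36 and 1.86 ± 0.0033 (SD, n = 3), a range of 106 ± 26.5-fold. On average 6.86% of members had no RNA read in a culture, so levels at the lower end depend on the 0.5 added and on gDNA. The 5th percentile and the fold range were not rerun with another value added and hold for this setting only. The interquartile range was 2.56 ± 0.23. More than 4-fold below the average were 28.5 ± 2.42% of inserts, against 4.25 ± 0.034% more than 4-fold above it. The 95th percentile was thus nearly the same in the 3 cultures, while the 5th was -5.21, -4.83 and -4.49 and the 99th 2.98, 3.29 and 3.82. Both ends of the range differed more between cultures than its upper shoulder did.

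A small part of the pool gave most of the RNA. The 1540 inserts with the most RNA in a culture, 10% of members, held 51.8%, 51.5% and 54.2% of its RNA reads, and the upper 50% held 94.5 ± 0.10%. For gDNA the 10% with the most reads held 33.0 ± 0.70%. The top 154 inserts by RNA, 1% of members, held 12.8%, 13.2% and 17.8% of the RNA reads. Of these lists, 75 inserts were in all 3 cultures and 236 in any. Without 1 insert, sequence_00580, the shares were 12.3%, 12.4% and 14.6%, so culture 3 was closer to the others but still the highest.

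Single inserts passed the test in both directions, more of them below the average. In a quasi-likelihood fit (edgeR, adjusted p under 0.05), 1102 inserts gave more RNA per gDNA than the average of the library, 7.16% of the 15397 tested, and 2503 gave less, 16.3%. The median log2 RNA over gDNA was 1.63 in the first set and -2.68 in the second. All 3 culture levels were above 0 in 1101 of the 1102 and below 0 in 2494 of the 2503. The other 11792 inserts, 76.6%, passed in neither direction, which does not show that they were at the average. These counts come from a fit without a culture block, and with culture as a block 1509 were above and 2896 below. The division depends on where 0 is set: with levels centred on the median insert 2860 were above and 969 below, and with TMM factors over all 6 libraries 2315 and 1221. Calls also depended on having 3 cultures, with 537, 199 and 352 above and 1029, 384 and 567 below without siNT replicates 1, 2 and 3.

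The highest levels were found in an unspliced insert and an almost fully spliced one. sequence_00580, with no spliced form listed, had 272536, 378308 and 1716399 RNA reads on 2227, 2630 and 2878 gDNA reads. Its level was 4.98, 5.29 and 7.23 (fitted log2 6.31, edgeR adjusted p = 0.00226). It stood far above the average in every culture, but culture 3 was well above the other two. This single insert made up 0.612%, 0.923% and 3.78% of the insert RNA reads of the 3 cultures, from 0.0193% to 0.0252% of the gDNA reads. sequence_12316 had 35578, 24935 and 34666 RNA reads on only 87, 166 and 100 gDNA reads, which gave levels of 6.63, 5.31 and 6.37 (fitted log2 6.12, edgeR adjusted p = 0.000516). Of its RNA reads, 99.8 ± 0.27% were spliced (n = 3), and it had the most spliced RNA per gDNA of all inserts with enough reads. These are the largest fitted values among inserts past the threshold with 100 or more gDNA reads on average.

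The RNA reads of members left a gap between silent inserts and the rest. Per culture, 1157, 1122 and 889 inserts had no RNA read at all, 6.86 ± 0.95% of members. A further 744, 668 and 586 had 1 to 3 reads. Only 203, 175 and 190 inserts had 4 to 29 reads, 1.23% of members, while 490, 545 and 665 had 30 to 99. In gDNA libraries the members had on average 150 inserts at 0 reads, 83.7 at 1 to 3, 117 at 4 to 9, 378.3 at 10 to 29 and 1214 at 30 to 99. The minimum of 20 mean gDNA reads removed 1064 inserts of low gDNA and set no limit on RNA, so the low ends of the RNA and gDNA reads cannot be compared. An insert thus tended to have either at most 3 RNA reads or at least 30, so the share of silent inserts is 11.2 ± 1.44% when up to 3 reads are counted as silent.

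**Figure D1:**
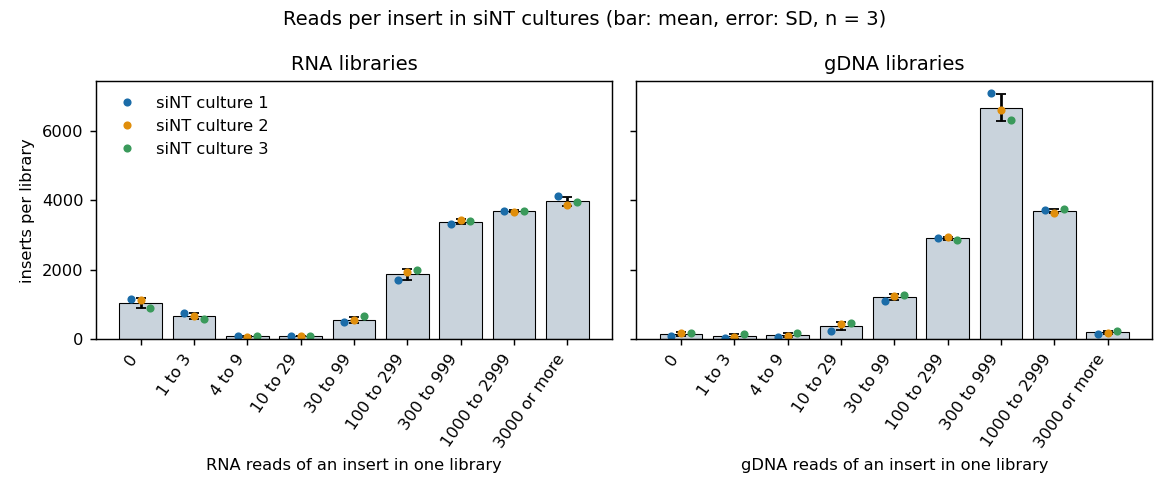
Number of inserts (vertical axis) by reads of the insert in one library (horizontal axis, classes of unequal width) for the 3 siNT RNA and 3 siNT gDNA libraries. Bars are means, error bars SD (n = 3) and points single cultures. The RNA libraries have few inserts at 4 to 29 reads, between 1722 on average at 0 to 3 reads and the bulk above 30, and the gDNA libraries are most filled at 300 to under 1000 reads. The gDNA minimum took inserts out of the low gDNA classes.

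Silence in 1 culture was often not shared by the others. No RNA read was found in 1 culture for 1162 inserts, in 2 cultures for 559 and in all 3 for 296, 1.92% of members. With up to 3 reads allowed, these numbers were 1623, 942 and 553. Some of the zeros fell on inserts well represented in the gDNA of the same culture: 587, 488 and 330 inserts had no RNA read with 100 or more gDNA reads in cultures 1, 2 and 3. Of these, 312, 282 and 165 had 100 or more RNA reads in another culture, and 62, 33 and 23 were above the library average there. In both other cultures 99, 76 and 77 were at 0 as well. sequence_00549 was the clearest case, with 1199, 0 and 2965 RNA reads on 45, 277 and 142 gDNA reads in cultures 1, 2 and 3. Its level was 2.64 and 2.35 in cultures 1 and 3, and in culture 2, where it had the most gDNA, it had no RNA read. It was not called in either direction (edgeR adjusted p = 0.63).

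The share of silent inserts fell with the amount of gDNA, and so did the spread between cultures. At 20 to under 50 mean gDNA reads, 43.7 ± 3.78% of 596 inserts had no RNA read in a culture (n = 3), and 30.8 ± 3.11% of 840 at 50 to under 100. The shares were 18.4 ± 2.75% of 1563 at 100 to under 200, 6.01%, 5.62% and 3.88% in the 3 cultures for 4024 at 200 to under 500 and 0.86 ± 0.22% of 4566 at 500 to under 1000. At 2000 or more gDNA reads none of 675 inserts was at 0 in any culture, which allows a share of up to 0.444% by counting error alone, taking inserts as independent. At the library average a median insert of the 20 to under 50 class would have about 130 RNA reads and one of the 200 to under 500 class about 1318. The median SD of an insert's level between cultures was 1.55 in the lowest of these classes, 0.99 at 200 to under 500 and 0.33 at 2000 or more. Calls in either direction covered 10.9% of the lowest class and 43.9% of the highest, beside 7.16% above and 16.3% below over all members. Levels of 2 cultures correlated across inserts with r = 0.62 to 0.68 over all 15397 and 0.84 to 0.86 over the 3808 with 1000 or more gDNA reads. Inserts share the libraries and are not replicates, so no p is given. Whether the number of cells carrying an insert accounts for this was not tested.

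**Figure D2:**
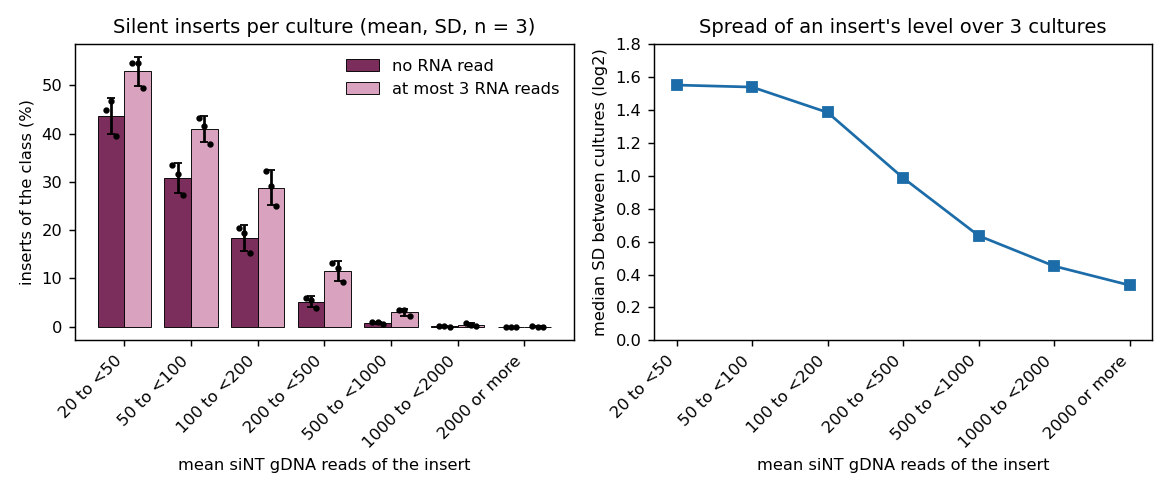
Left, percent of inserts (vertical axis) with no RNA read or at most 3 RNA reads in a siNT culture, by the insert's mean siNT gDNA reads (horizontal axis); bars are means, error bars SD (n = 3) and points cultures. Right, median over inserts of the SD of log2 RNA over gDNA between the 3 cultures, for the same classes. Silence falls from 43.7% in the lowest class to 0 of 675 in the highest, and the SD from 1.55 to 0.33.

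Inserts silent in all 3 cultures were mostly of low gDNA, but not all. The 296 inserts had 60 to 1505 gDNA reads over the 3 cultures, with a median of 180.5. Against a floor of 3 RNA reads over the group, their RNA over gDNA was at least 76.8-fold to at least 1926-fold below the library average, with a median bound of 231-fold. These bounds cover counting error only, as PCR reads without molecular identifiers are not independent molecules. Of the 296, 182 passed the test below the average, beside 16.3% of all members, and as they were chosen for having no RNA read nothing is read from that count. A spliced form was listed for 17 of them (5.74%), against 2225 of all 15397 members. sequence_15518 had the most gDNA, with 575, 496 and 434 reads, and no RNA read where the average insert would have had 5771 over the 3 cultures. The average was at least 1926-fold higher, a bound that the edgeR test against the average (adjusted p = 0.0026) does not measure. With the knockdowns the same insert had 720 RNA and 975 gDNA reads (siWDR82) and 433 RNA and 1226 gDNA reads (siZC3H4), summed over 3 cultures. sequence_12884, with 576, 287 and 286 gDNA reads and no RNA read, was at least 1471-fold below by the same bound. Its edgeR test against the average gave an adjusted p of 0.00387. It had 22 RNA and 810 gDNA reads with siWDR82 and 151 RNA and 1657 gDNA reads with siZC3H4. Both inserts were chosen for having no siNT RNA read, so nothing is read from their p-values. For the same reason RNA reads under a knockdown could only be as many or more. No effect of the knockdowns is read from these counts.

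The level of an insert went with its place in the numbering, which the tables give without saying what it stands for. Over the 33 ranges of 500 numbers, the median level spanned 3.25, 2.58 and 2.61 in the 3 cultures. Inserts 1 to 4000 had a median of 0.25 ± 0.14 (n = 3), which only inserts 12001 to 12500 exceeded among the broad ranges that do not overlap, with 0.54 ± 0.079. Medians were -0.20 ± 0.12 for inserts 4001 to 5500, -1.46 ± 0.14 for 5501 to 9000 and -1.96 ± 0.25 for 9001 to 12000. Near number 5500 the median fell from -0.26 ± 0.063 at 5001 to 5500 to -1.08 ± 0.098 at 5501 to 6000. Narrower ranges were not examined there, so a step and a slope cannot be told apart. Between inserts 1 to 4000 and 9001 to 12000 the difference in median was 2.64, 2.09 and 1.89, larger than the spread between cultures. These broad ranges were chosen with earlier results of these data known, and the differences carry no test.

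The ranges also differed in representation, in calls and in spread. Inserts 1 to 4000 had a median of 739 mean gDNA reads and those of 9001 to 12000 had 420, but among inserts with 500 to under 1000 gDNA reads the difference in level was 2.13 ± 0.24 (n = 3). Without inserts that have a spliced form listed it was 2.23 ± 0.41. Of the 3859 members numbered 1 to 4000, 626 (16.2%) were called above and 188 (4.87%) below, beside 7.16% and 16.3% of all members. Of the 2687 numbered 9001 to 12000, 17 (0.63%) were called above and 726 (27.0%) below. Inserts 1 to 4000 held 30.5% of gDNA reads but 49.3% of RNA reads on average. Their levels had an interquartile range of 1.78 ± 0.040, against 2.39 ± 0.19 for 9001 to 12000. This difference was not examined at like gDNA, and an insert's spread between cultures was larger at low gDNA. Whether inserts 1 to 4000 are more alike in themselves was thus not tested.

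Most of the variation nevertheless lay within ranges. Differences between the means of the 33 ranges held 24.3%, 17.3% and 15.3% of the variance of level in the 3 cultures. The rest is not all lasting difference between inserts, as levels of 2 cultures correlated with r = 0.62 to 0.68 only. Levels of neighbouring numbers correlated with r = 0.30 over 14444 pairs, and with r = 0.073 once the median of each range was taken off. Pairs 500 numbers apart gave 0.17 and -0.0026. Pairs share libraries, and r is given as a description. Over the whole pool, the number of an insert thus said little about the level of the next, apart from the range it lies in. Inside a single range the level could still change sharply, with medians of -1.47 at 12001 to 12100 and 0.97 at 12101 to 12200.

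Silence rose over the same ranges up to number 12000, but did not follow the level in all ranges. No RNA read was found for 2.05 ± 0.37% of inserts 1 to 4000 per culture, 5.15 ± 0.41% of 4001 to 5500, 9.23 ± 1.54% of 5501 to 9000 and 12.4 ± 1.66% of 9001 to 12000. The highest shares among the ranges of 500 were 17.8 ± 2.06% at 15001 to 15500 and 17.7 ± 3.01% at 10501 to 11000, whose values overlap. The lowest was 0.95 ± 0.42% at 14001 to 14500, where the median level was -0.77 ± 0.16, below that of inserts 1 to 4000. Range 15001 to 15500 alone held 33 of the 296 inserts silent in all cultures, among 432 members. Between 100 and 200 gDNA reads the share was 8.30% for inserts 1 to 4000 (273 inserts) and 25.2% for 9001 to 12000 (361 inserts), so the order held at like representation.

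**Figure D3:**
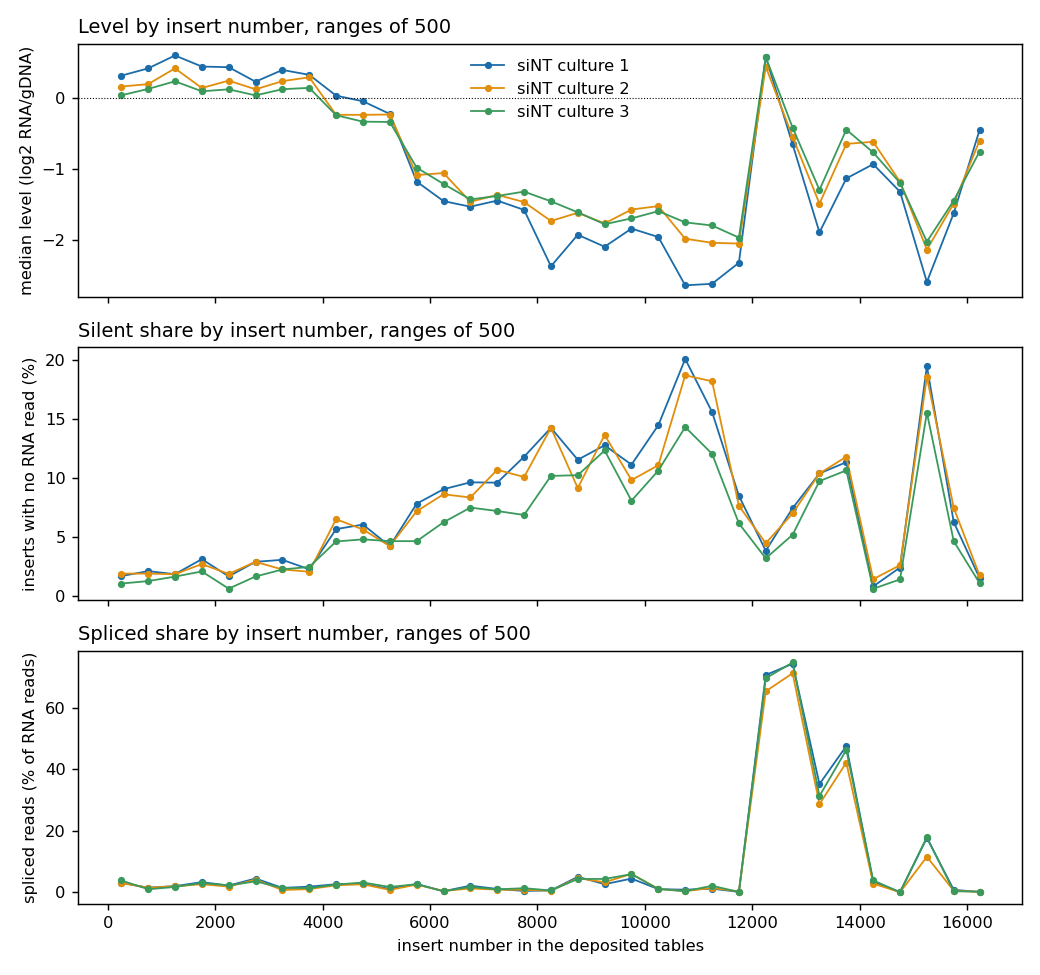
Median log2 RNA over gDNA, percent of inserts with no RNA read, and spliced reads as percent of RNA reads (vertical axes, from top to bottom) in ranges of 500 insert numbers (horizontal axis). Lines are the 3 siNT cultures. The level falls near number 5500 and its mean over cultures peaks at 12001 to 12500, where 68.6% of RNA reads are spliced. The silent share is highest where the level is lowest, but its lowest value, 0.95% at 14001 to 14500, is not where the level is highest.

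Spliced RNA was a small part of the whole and came from few inserts. Spliced reads were 8.83%, 7.38% and 8.23% of the RNA reads of members in the 3 cultures. A spliced form was listed for 2225 members, and of these 518 (23.3%) had no spliced read in siNT and 1257 had one in every culture. Within the 2225, spliced reads were 45.1 ± 2.57% of RNA reads (n = 3). The 100 inserts with the most spliced reads of a culture held 46.3 ± 0.54% of all spliced reads, and the top 500 held 89.6 ± 0.17%. The gDNA table lists no spliced forms.

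Inserts were spread over the whole scale of splicing, with many in the narrow classes at either end. Of 2163 with a form listed and 100 or more RNA reads over the 3 cultures, 596 (27.6%) had under 1% spliced reads and 391 (18.1%) had 90% or more. Between these lay 330 at 1 to under 10%, 434 at 10 to under 50% and 412 at 50 to under 90%. The spliced percent of an insert was well repeated, with a median SD of 3.16 percentage points between cultures over the 1822 inserts with 100 or more RNA reads in each, and r = 0.92 to 0.93 between cultures. The SD was 10.1 points for the 706 inserts with a mean of 10 to under 90%, and 82 inserts (4.50% of the 1822) differed by over 50 points between cultures. Of 139 members with 2 or more forms listed, 100 had at least 100 spliced reads, and their main form held a median of 85.9% of these (50.9% to 100%). sequence_12728 had the most forms, 3, with 21.2%, 14.3% and 18.9% of 2146, 2394 and 2401 RNA reads spliced. Its forms had 755, 249 and 246 reads over the cultures, and its level was -1.23 ± 0.15 (n = 3; edgeR adjusted p = 0.02).

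Highly spliced inserts had the most RNA, although little of it was unspliced. The median level was -0.58 ± 0.075 at under 1% spliced reads, -0.29 ± 0.099 at 1 to under 10% and -0.43 ± 0.18 at 10 to under 50% (n = 3). The cultures of the 10 to under 50% group overlapped with those of both others, which did not overlap. It was 0.49 ± 0.24 at 50 to under 90% and 1.95 ± 0.35 at 90% or more. Counting unspliced reads alone, it was -0.46 ± 0.064 at under 1%, -0.26 ± 0.077 at 1 to under 10% and -0.77 ± 0.20 at 10 to under 50%. The unspliced level was -1.42 ± 0.36 at 50 to under 90% and -2.67 ± 0.64 at 90% or more, so the highest groups became the lowest. Leaving out spliced reads lowers highly spliced groups most by construction. Spliced reads enter both the level and the spliced percent, so the 2 measures are not independent and no test is given. Highly spliced inserts had less gDNA, a median of 217 mean reads at 90% or more against 613 at under 1%. At 500 to under 1000 gDNA reads the medians were 1.31 ± 0.043 for 55 inserts at 90% or more and -0.69 ± 0.069 for 174 at under 1%.

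Calls were divided in the same way. At 90% or more spliced reads 168 of 391 (43.0%) were called above the average and 2 (0.51%) below, beside 7.16% and 16.3% of all members. At under 1% the numbers were 60 (10.1%) and 70 (11.7%) of 596. Both groups hold only inserts that met the minimum of RNA reads, while no such minimum was set for all members. The minimum takes out inserts of low RNA, and spliced reads enter both the level and the grouping. Part of the difference in calls is thus built in, and the shares of these groups and of all members cannot be compared directly. Over all members with a form listed, 363 (16.3%) were above and 199 (8.94%) below, and among the 13172 without one 739 (5.61%) and 2304 (17.5%). No RNA read was found in a culture for 3.28 ± 0.47% of inserts with a form listed and for 7.46 ± 1.03% of the others. How the listed forms were chosen is not known from the sources used here.

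**Figure D4:**
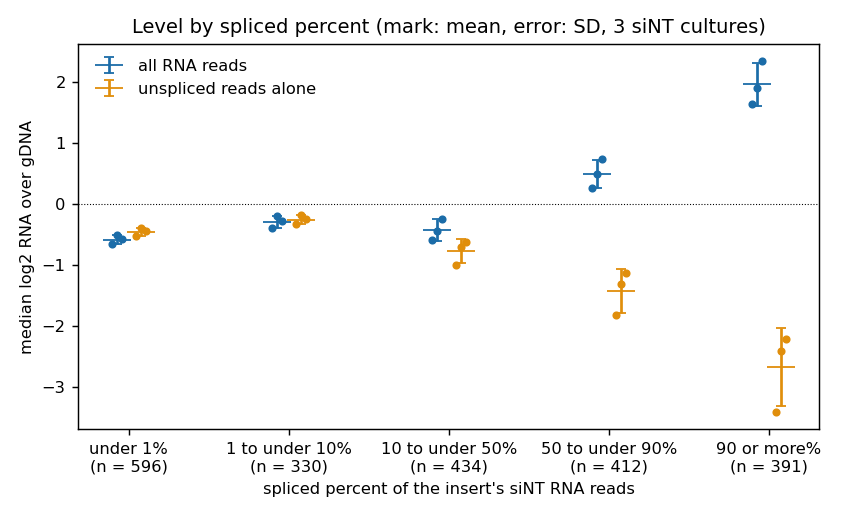
Median log2 RNA over gDNA (vertical axis) of inserts grouped by the spliced percent of their siNT RNA reads (horizontal axis, n inserts under each group), for all RNA reads and for unspliced reads alone. Points are the 3 siNT cultures, marks their mean and error bars SD. With all reads the level is highest at 90% or more (1.95), where unspliced reads alone are lowest (-2.67).

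Spliced inserts lay together in the numbering. Inserts 12101 to 12900 had a form listed in 90.3% of 729 members and held 60.7% of all spliced reads, from 3.49% of gDNA reads. These limits were set after the values were seen. On either side the share with a form listed dropped within 100 numbers, to 30.1% at 12001 to 12100 and 16.3% at 12901 to 13000. The median level within 12101 to 12900 was 0.46 ± 0.055 (n = 3), against -1.47 ± 0.14 at 12001 to 12100 and -1.87 ± 0.21 at 12901 to 13000. The stretch was not uniform. Medians of its ranges of 100 numbers lay between 0.28 and 1.21 up to number 12500 and between -0.39 and -0.01 from 12501 on. Members of 12101 to 12900 with no form listed had a median of -2.21. A second, weaker stretch lay at 13401 to 13900, with a form listed in 63.6% of 448 members, a spliced share of 43.2% and a median level of -0.53 ± 0.29.

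Set beside the knockdowns, siNT cultures had more silent inserts, a larger spliced share and a wider spread of levels. The siNT cultures had 7.51%, 7.29% and 5.77% of members without an RNA read, those of siWDR82 had 3.20%, 3.25% and 3.33%, and those of siZC3H4 had 2.90%, 3.67% and 3.56%. The spliced share of RNA reads, 8.83%, 7.38% and 8.23% in siNT, was 4.32%, 4.29% and 5.03% for siWDR82, and for siZC3H4 it was 5.01%, 6.14% and 5.89%. The interquartile range of 2.56 ± 0.23 in siNT stood against 1.78 ± 0.081 for siWDR82 and 1.99 ± 0.064 for siZC3H4 (n = 3). No knockdown culture overlapped siNT in these measures. Exact two-sided permutation tests of 6 knockdown against 3 siNT cultures gave p = 0.0238 for each of the 3 measures. This is the smallest p the design allows. After adjustment over the 9 comparisons made, the permutation p was 0.0714, which does not pass 0.05. No outcome of these 9 comparisons could give a smaller adjusted p. Not passing was thus set by the number of cultures and comparisons, and nothing is read from it. Either siRNA alone gave an exact permutation p of 0.1, the smallest that 3 against 3 cultures allow. Members were chosen on siNT gDNA, and with 20 or more mean gDNA reads required under each siRNA (14900 inserts) the direction of all 9 differences was the same.

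**Figure D5:**
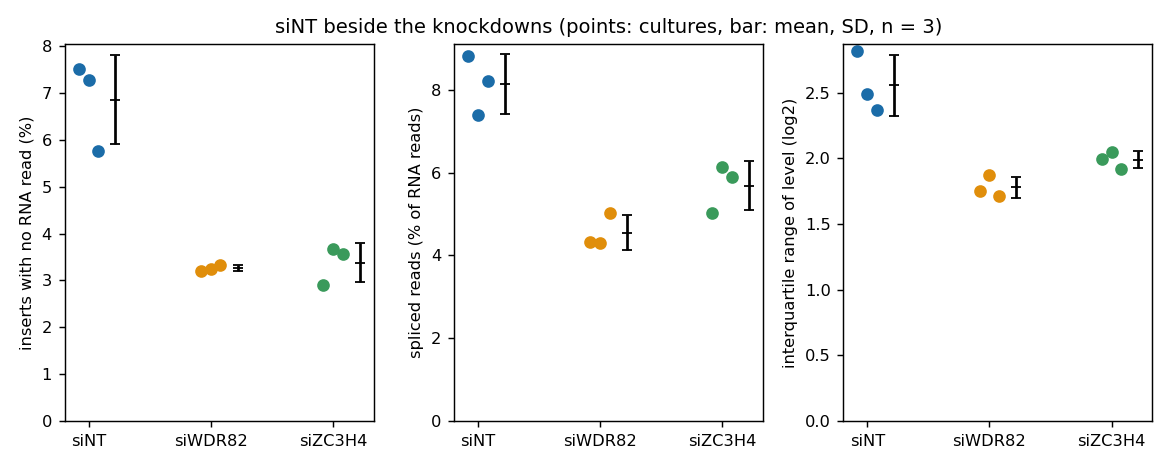
Percent of members with no RNA read, spliced percent of RNA reads and interquartile range of log2 RNA over gDNA (vertical axes) in the cultures of each siRNA (horizontal axis). Points are cultures, bars beside them mean and SD (n = 3). In each panel the 3 siNT cultures lie above the 6 knockdown cultures, with 5.77% to 7.51% silent inserts against 2.90% to 3.67%.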

How the data were processed

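Successive PCRs amplified the inserts from gDNA, and RNA was spiked, treated with DNase, reverse transcribed from mKate2 and amplified, per the labels' protocols. Build mm10 and the tools STAR, SAMtools, Bowtie2 2.3.4.3 and cutadapt 1.14 are named in the submitters' processing notes, without their roles. The tables the authors deposited hold raw counts of reads for inserts, spliced forms and spike-ins. No molecular identifiers are mentioned, so counts include PCR duplicates. The header names the 9 libraries of each table, which were matched to samples by name. Rows of spike-ins and of unassigned reads (0 reads) were left out.

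Unspliced and spliced counts of an insert were added to give its RNA. Library totals are all insert reads. RNA over gDNA was tested in the 6 siNT libraries with edgeR 4.0.16 (R 4.3.3) quasi-likelihood, TMM factors within RNA and within gDNA, and Benjamini-Hochberg adjustment at 0.05 over all 15397 inserts. The edgeR fit was also run on simulated counts with independent libraries and a fixed dispersion, a setting without the culture pairing of these data. Alternatives covered normalization, DESeq2 1.42.0, all 18 libraries, count minimums, pseudocount, unspliced reads, centring, thinning, the culture block and each siNT culture left out. RNA and gDNA of the same culture deviated together from the siNT means across inserts (r = 0.30, 0.33 and 0.29), so the culture numbers pair the libraries. All calls and adjusted p-values come from the fit without a culture block, and the paired fit is an alternative. Replicates were not duplicates of one library (chi-square per degree of freedom at least 83.4). The edgeR p-values measure the spread among the 3 RNA and among the 3 gDNA libraries, not paired by culture. The cultures are labelled biological replicates.

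Named inserts were the 2 with the largest fitted RNA over gDNA (past the threshold, 100 or more mean gDNA reads, all cultures above average), the 2 silent in all cultures with the most gDNA, the one with the most spliced RNA per gDNA, the one with the most forms, and the one with 0 RNA reads in 1 culture and the most in another. Members, ranges and measures were chosen with earlier results of these data known.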

Additional observations from a re-analysis of the deposited data

Results flagged for a closer look

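A signal was found in data that the comparisons above leave out. Of 349 inserts without a single gDNA read in siNT, 54 had more than 3 RNA reads over the siNT cultures. This limit is a floor for RNA reads and does not follow from a gDNA count of 0. An average insert had 3.67 to 3.98 RNA reads for each gDNA read. Inserts present but not sampled in gDNA are thus not set apart by it. No RNA read was found for 276 of the 349. The highest insert had 26412 RNA reads, and the median of the 54 was 227. Of 244 inserts without a gDNA read in any of the 9 gDNA libraries, 44 had more than 3 RNA reads over the 9 RNA libraries. The cause was not tested.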

How the results depend on the processing

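Above and below the average, 1102 and 2503 became 2315 and 1221 with TMM over all 6 libraries, 2860 and 969 when centred on the median insert, and 1898 and 4150 with all 18 libraries fitted, where more libraries estimate the spread. DESeq2 gave 1493 and 4145. The replicate block gave 1509 and 2896, and library totals 1115 and 2513. With 1 siNT culture left out, calls above ranged from 199 to 537 and calls below from 384 to 1029, with fewer samples. The silent share of 6.86% was 9.04% without a gDNA minimum, 3.85% at 100 or more gDNA reads and 11.2% with up to 3 reads counted as silent. It ranged from 5.84% to 7.28% with 1 culture left out. The interquartile range of 2.56 was 2.21 with 2 CPM added and 2.32 with reads pooled over cultures. Inserts with a spliced form listed stood 0.98 above the others in median level, 0.87 at 100 or more gDNA reads, 0.87 with 2 CPM added, and -0.15 ± 0.21 (SD, n = 3) with unspliced reads alone, where spliced reads are not counted, with -0.38, -0.10 and 0.026 in the 3 cultures and so no common sign. Ranked by RNA over gDNA, the top 1% of inserts held 5.64% of RNA reads in place of 14.6%. The spliced share lay between 7.44% and 8.51% over the alternatives and the range over insert numbers between 2.44 and 2.94. Both are positive by construction, so no change of direction was possible for them. The knockdown differences kept their direction in every alternative run. Thinned RNA libraries left the silent share within 1 SD. Single levels were less precise at low gDNA, with a median SD between cultures of 1.38 at 100 to under 200 gDNA reads and 0.33 at 2000 or more.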
